A study of Mus musculus with 5 samples.

Results

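Processed pseudogenes of ribosomal proteins were examined beside the genes they were copied from in RNA-sequencing of single mouse embryos at E6.75. The members were all rows of the count table that had a pseudogene biotype, a name of the form Rps or Rpl followed by -ps, and at least 10 counts summed over the 5 embryos. Of 262 such named rows, 133 (50.8%) met the count minimum, 27 had 1 to 9 counts and 102 had none. They derive from 51 parent genes, taken as the name before -ps. The table holds 49671 rows in all, and 1479 rows with a pseudogene biotype had at least 10 counts. By biotype, 130 members were processed pseudogenes and 3 were transcribed processed pseudogenes, while 50 parents were protein coding and the parent Rps4l is itself a transcribed processed pseudogene. The members were thus chosen by their raw counts summed over all 5 embryos, and these totals are described here and not tested.

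The 2 SO+ embryos were WT; Sox2Cre-/-; Oct4 fl/+, with no Cre and one floxed Oct4 allele. The 3 SO− embryos were Sox2Cre+/-; Oct4 fl/-, with the Cre transgene, a floxed and a null allele. Sox2Cre recombines mainly in the epiblast, so the visceral endoderm (VE) that was sequenced with it is largely outside the deletion. The strain background is given as mixed in all 5 embryos. Each library came from the epiblast and VE of 1 embryo, with 1 ng of input and 15 cycles of preamplification after polyA selection.

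Ribosomal proteins are the structural proteins of the ribosome, and their messenger RNAs are short, abundant and present in every cell. Such messages were often copied back into the genome by reverse transcription, which leaves intronless copies scattered over many chromosomes. A copy that is recent and nearly identical to its parent can claim reads that came from the parent, or lose its own reads to it, depending on how the aligner and counter treat reads with several matches. The study's methods do not state that treatment, nor whether strand was used.

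Pou5f1, which encodes Oct4, was measured at 920 and 435 CPM (the count scaled to a library total of 1e6) in SO+ embryos 1 and 2, and at 27.8, 12.5 and 43.7 CPM in SO− embryos 1, 2 and 3. Library totals were 27538119 and 27047148 counts in the SO+ embryos and 1117566 to 4191498 in the SO− embryos, so that 3 counts correspond to 0.109 to 0.111 CPM in SO+ and to 0.716 to 2.68 CPM in SO−. The 2 SO+ libraries share one second index and the 3 SO− libraries another, and depth, index and genotype cannot be told apart. Summed over 6 genes each, epiblast markers reached 5984 to 7185 CPM in SO+ and 2576 to 4186 CPM in SO−. VE markers reached 3571 to 3732 and 3320 to 4974 CPM, and markers of the removed ExE 219 to 267 and 239 to 305 CPM. Most of the ExE sum was Eomes, at 209 to 252 CPM in SO+ and 214 to 277 CPM in SO−. The paper also reports Eomes in epiblast cells, so this sum does not measure ExE left in the samples. None of the other ExE markers exceeded 16.1 CPM in any embryo. Among the epiblast markers, Pou5f1, Utf1, Dnmt3b, Pim2 and, by less, Otx2 were lower in every SO− embryo. Fgf5 was not, at 251 and 377 CPM in SO+ and 420, 370 and 424 CPM in SO−. Of 6 blood or immune markers, Ptprc, Lyz2, Hbb-bs and Tyrobp had no count in any embryo. In bulk samples, fewer cells of a type and less RNA per cell cannot be told apart. Y-linked Ddx3y was detected in all 5 embryos, at 37.0 to 52.2 CPM.

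All 133 members were found in GENCODE M21 (GRCm38), on 20 chromosomes, 12 of them on the X chromosome. The median annotated length was 480 bases (151 to 1214). The 132 members that aligned over more than 90% of their length were close copies. The median over the members was 7 mismatches and 98.6% identity. The lowest identity, 87.5%, was in Rpl36a-ps3, for which the parent taken from the name is not the closest match by shared stretches, as given below. Of the 132, 11 had no mismatch at all. Of the 116 members in which the parent's start codon could be followed through the alignment, 75 kept the whole open reading frame. The exception was Rpl18-ps1, which had no alignment to Rpl18 beyond a short stretch. It lies in an intron of Ctla4 on the same strand, and Ctla4 itself had 0 counts in all 5 embryos. Only 4 members lie on the chromosome of their parent, and 81 overlap no other gene. Of the other 52, 18 lie on the same strand as the gene they overlap and 7 reach one of its exons.

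The sequences of 5 members are shown beside their parents because their ratio to the parent differed most between embryos among the 10 members with the highest mean CPM. Each line is a stretch of 150 bases, the length of 1 read of a pair, and of the stretches of the parent's coding sequence that align without a gap it is the one with the most mismatches. They are GENCODE M21 transcript sequences on GRCm38, written 5′ to 3′ along the transcript, and capitals mark the bases at which pseudogene and parent differ. Positions count from 1 at the A of the parent's start codon.

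Rps2-ps13 (chrX:52898588-52899469, plus strand) is an intergenic, intronless copy of Rps2 (chr17:24718116-24721929, plus strand), which encodes a protein of the small ribosomal subunit. It spans 882 bases, matches the coding sequence from start to stop and keeps all 293 codons open. Its 7 substitutions, T60A, A84G, T204C, G300A, C444T, C453A and T756C, change 0 residues. The stretch shown is chrX:52898642-52898791, plus strand, coding positions 55 to 204.
Rps2-ps13: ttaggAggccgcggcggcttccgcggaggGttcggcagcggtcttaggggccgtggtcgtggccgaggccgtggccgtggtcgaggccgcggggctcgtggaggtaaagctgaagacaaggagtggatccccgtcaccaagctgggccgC
Rps2: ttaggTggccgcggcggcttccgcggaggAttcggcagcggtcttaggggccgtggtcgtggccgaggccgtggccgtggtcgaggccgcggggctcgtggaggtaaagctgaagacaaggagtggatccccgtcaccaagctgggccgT

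Rpsa-ps10 (chr3:150072658-150073542, minus strand) is an intergenic copy of Rpsa (chr9:120127689-120132369, plus strand), the gene of the ribosomal protein that is also known as a laminin receptor. It has 6 substitutions over 885 bases, 1 of which changes a residue. The stretch shown is chr3:150073198-150073347, minus strand, coding positions 196 to 345.
Rpsa-ps10: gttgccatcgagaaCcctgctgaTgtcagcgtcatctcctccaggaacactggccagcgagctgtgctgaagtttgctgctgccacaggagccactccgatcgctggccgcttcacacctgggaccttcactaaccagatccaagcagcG
Rpsa: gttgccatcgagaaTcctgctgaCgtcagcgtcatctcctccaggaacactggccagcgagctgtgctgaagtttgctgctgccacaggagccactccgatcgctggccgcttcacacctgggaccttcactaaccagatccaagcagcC

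Rpl3-ps1 (chrX:13202571-13203780, plus strand) is an intergenic copy of Rpl3 (chr15:80077791-80091868, minus strand), which encodes a large subunit protein. It has 2 substitutions over 1210 bases, C57A and T786C, which change 0 residues. The stretch shown is chrX:13202572-13202721, plus strand, coding positions 1 to 150.
Rpl3-ps1: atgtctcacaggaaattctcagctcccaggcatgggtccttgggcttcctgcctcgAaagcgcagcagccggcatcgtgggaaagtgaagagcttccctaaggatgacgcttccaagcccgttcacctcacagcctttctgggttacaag
Rpl3: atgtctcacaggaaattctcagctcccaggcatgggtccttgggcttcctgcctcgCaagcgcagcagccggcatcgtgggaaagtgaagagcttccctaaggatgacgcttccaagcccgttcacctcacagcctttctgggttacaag

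Rpl15-ps2 (chr9:72060937-72061549, plus strand) is a copy of the large subunit gene Rpl15 (chr14:18267823-18271391, minus strand) and lies in an intron of Tcf12, on the opposite strand. It has 8 substitutions over 613 bases, and 3 residues differ. The stretch shown is chr9:72060941-72061090, plus strand, coding positions 7 to 156.
Rpl15-ps2: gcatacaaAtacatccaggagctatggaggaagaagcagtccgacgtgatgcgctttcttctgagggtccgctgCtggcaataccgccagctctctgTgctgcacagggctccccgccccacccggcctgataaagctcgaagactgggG
Rpl15: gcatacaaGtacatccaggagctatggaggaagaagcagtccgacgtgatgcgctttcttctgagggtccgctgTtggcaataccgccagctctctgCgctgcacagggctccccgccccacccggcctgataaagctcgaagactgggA

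Rps15a-ps7 (chr2:152185291-152185682, minus strand) is an intergenic copy of the small subunit gene Rps15a (chr7:118104372-118116188, minus strand). It has 4 substitutions and a gap of 1 base over 392 bases, and its frame is not open over the whole length. The stretch shown is chr2:152185440-152185589, minus strand, coding positions 95 to 244, and it holds 1 of the 4 substitutions.
Rps15a-ps7: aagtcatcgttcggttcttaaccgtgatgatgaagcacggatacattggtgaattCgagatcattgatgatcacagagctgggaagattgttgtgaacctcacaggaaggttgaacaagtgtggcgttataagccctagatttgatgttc
Rps15a: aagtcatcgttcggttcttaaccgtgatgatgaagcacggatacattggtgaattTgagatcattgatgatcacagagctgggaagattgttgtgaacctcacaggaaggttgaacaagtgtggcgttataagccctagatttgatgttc

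A read can be placed by sequence only where it covers a difference. Of the 133 members, 63 had no stretch of 150 bases that also occurs in a parent transcript, 70 had at least 1, and in 10 every stretch did. For Rps2-ps13, 20.9% of its stretches of 150 bases are found in Rps2, and 68.1% in the transcripts of 20 genes other than Rps2. The share found in the parent was 33.7% for Rpsa-ps10, 80.4% for Rpl3-ps1, 25.2% for Rpl15-ps2 and 25.5% for Rps15a-ps7. These shares are for single stretches of 1 read length, and what both reads of a pair cover together was not computed.

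The members together took a small part of each library. They held 0.186% and 0.141% of all counts in SO+ embryos 1 and 2, and 0.110%, 0.0742% and 0.0909% in SO− embryos 1, 2 and 3. The SO+ mean was 0.163% ± 0.0321 (SD, n = 2) and the SO− mean 0.0915% ± 0.0177 (SD, n = 3). No SO− embryo reached an SO+ embryo. Since the SO+ libraries supply most of the counts by which members were chosen, these sums are a description. The parents took 3.71% to 4.34% of each library. For every 1000 counts of the parents, the members had 45.1, 35.6, 27.6, 19.99 and 20.9 counts in the same order of embryos.

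That difference rested on Rps2-ps13, which alone held 36.1% of the members' counts, with 66.2% in the 5 largest members. Without it, the other 132 members held 0.118% and 0.0794% of the counts in SO+ and 0.108%, 0.0733% and 0.0892% in SO−, and the genotypes overlapped. Per 1000 parent counts the values were then 28.5, 20.1, 27.3, 19.7 and 20.6, again with overlap.

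Counts of most members were low beside those of their parents, and sparse in the SO− libraries. The median member had 113 counts over the 5 embryos and between 2.48 and 3.46 counts per 1000 parent counts in each embryo. Every member had a count in both SO+ libraries, while 15, 44 and 13 members had none in SO− embryos 1, 2 and 3. The count minimum was met on the SO+ libraries alone by 130 members and on the SO− libraries alone by 92. Just inside the minimum were Rpl15-ps4, Rpl21-ps11 and Rpl31-ps20 with 10 counts and Rpl30-ps5 with 11. Just outside were Rpl23a-ps5 with 9, Rpsa-ps11 and Rpl19-ps10 with 8 and Rpl7a-ps8 with 6. Of these 8 rows, none had more than 2 counts in any SO− embryo.

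To ask which members differed with genotype, counts of all genes were fitted with edgeR's quasi-likelihood test. Of 12067 genes tested, 283 passed an adjusted p of 0.05 (Benjamini-Hochberg), that is 2.35%, with 0.928% lower and 1.42% higher in SO−. The filter on low counts kept 63 members, each with at least 10 counts in the SO− libraries, and left out 70. Of the 63, 1 was called, Rps2-ps13, which was lower in SO−. It was also the only member with an unadjusted p under 0.05, against 13.7% of all genes tested, and the only one called by DESeq2. Among the 63, 23 log2 fold changes (SO− against SO+) were above 0 and 40 below, with a median of −0.07, beside −0.0019 with 50.3% below 0 over all genes tested. CPM values did not overlap between genotypes for 9 members, 8 of them lower and 1 higher in SO−. Over all genes tested, 29.5% did not overlap, 15.6% lower and 13.9% higher.

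Rps2-ps13 fell from one of the more abundant rows of the table to a low level. It had 18853 and 16621 counts in SO+ embryos 1 and 2, and 54, 10 and 69 in SO− embryos 1, 2 and 3. In CPM this was 685 and 615 in SO+, and 13.1, 8.95 and 16.5 in SO−. The mean was 650 ± 49.6 CPM (SD, n = 2) in SO+ and 12.8 ± 3.76 CPM (SD, n = 3) in SO−, and all SO− values were far below both SO+ values. The log2 fold change was −5.54 (SE 0.16, edgeR adjusted p = 6.70e-10), and it lay between −5.45 and −5.77 when any one embryo was left out. Other measures moved with it. Library totals and epiblast marker sums, though not Fgf5 among those markers, were also lower in every SO− embryo than in every SO+ embryo. Their part in the result was not tested.

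Its parent moved the other way by a smaller factor. Rps2 had 1215 and 1057 CPM in SO+, and 1992, 1779 and 2163 CPM in SO−. The ranges did not overlap, and the log2 fold change was 0.81 (SE 0.11, edgeR adjusted p = 0.00147). Without SO− embryo 1 it was 0.79 with an adjusted p of 0.0642. In counts of Rps2-ps13 per 1000 counts of Rps2, the SO+ embryos had 563 and 581 and the SO− embryos 6.56, 5.03 and 7.61. On a log2 scale the SO− mean of the ratio minus the SO+ mean was −6.47 (two-sided exact permutation, p = 0.1, as low as this design allows).

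**Figure D1:**
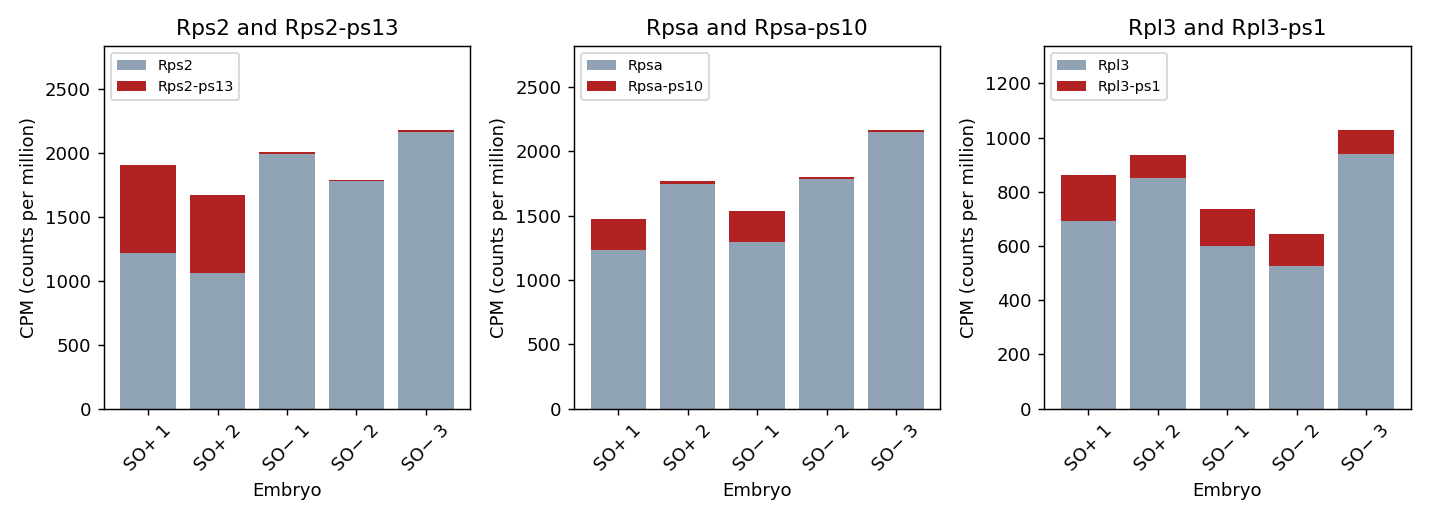
Bars give CPM (vertical axis) in each of the 5 embryos for 3 parent genes in grey, with 1 pseudogene of each stacked in red. Rps2-ps13 adds 685 and 615 CPM in the SO+ embryos and at most 16.5 CPM in the SO− embryos, while Rpsa-ps10 and Rpl3-ps1 add much in some embryos of both genotypes.

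Adding the counts of all members to their parents left Rps2 without a call. Rps2 with its 5 pseudogenes had 1916 and 1684 CPM in SO+ and 2018, 1808 and 2191 CPM in SO−, and SO− embryo 2 lay between the SO+ embryos. The log2 fold change became 0.16 (SE 0.10, edgeR adjusted p = 0.546). Over the 5 embryos, the coefficient of variation of Rps2 went from 29.5% to 10.1%. No other parent moved as far. The shift of the log2 fold change was −0.64 for Rps2 and at most 0.043 in size for the other 50 parents, the next being Rps15a.

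The parents themselves were read beside all genes tested, of which 2.35% were called, 1.42% higher in SO−. Of 51 parents, all tested, 2 were called, both higher in SO−, among them Rps2. The other was Rps18, a small subunit gene, with 672 and 589 CPM in SO+ and 937, 795 and 1003 CPM in SO−. Its log2 fold change was 0.54 (SE 0.12, edgeR adjusted p = 0.0268), and it kept this with pseudogene counts added, at 0.54 and an adjusted p of 0.0248. It lost the call when SO+ embryo 2 or any 1 of the SO− embryos was left out, with log2 fold changes of 0.45 to 0.63 and adjusted p from 0.0566 to 0.281. The 51 log2 fold changes ran from −0.23 to 0.81 with a median of −0.04, and 38 were below 0. Over all genes tested the median was −0.0019, with 50.3% below 0. CPM did not overlap between genotypes for 3 of the 51 parents, beside 29.5% of all genes tested.

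**Figure D2:**
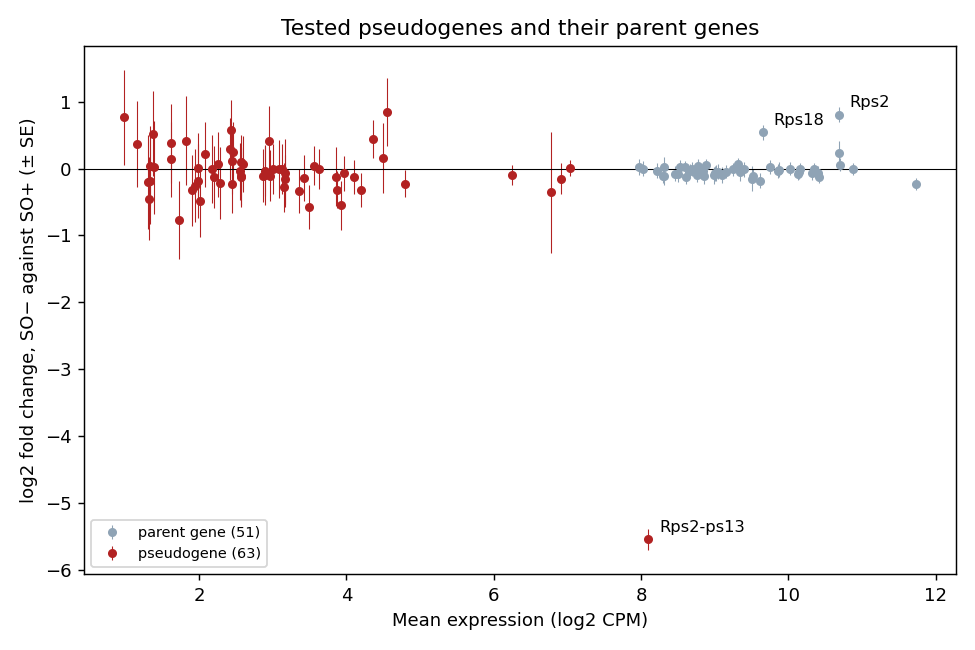
Points give the log2 fold change of SO− against SO+ with its standard error (vertical axis) against mean expression in log2 CPM (horizontal axis) for 63 tested pseudogenes in red and 51 parents in grey. Rps2-ps13 stands at −5.54, Rps2 at 0.81 and Rps18 at 0.54, and no other point was called.

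Other rows that share a stretch of 150 bases with Rps2-ps13 were looked at next. Apart from Rps2, 17 of them are in the count table, none above 13.4 CPM in any embryo. Of these, 6 were tested, with edgeR adjusted p from 0.147 to 0.963. The CPM of 5 of the 17 was lower in every SO− embryo and of 3 higher in every SO− embryo. Over all genes tested, 15.6% were lower and 13.9% higher in this way. Most of the 17 rows had too few counts to be tested, and a count of 0 in SO− can by itself set such a row lower. The shares over tested genes are thus not a like background for the 17. None of the 5 lower rows had more than 5 counts in any SO− embryo. The processed pseudogene Gm12366 had 168 and 131 counts in SO+ and 4, 4 and 3 in SO−, which is 6.10 and 4.84 CPM against 0.967, 3.58 and 0.716 CPM. Its log2 fold change was −2.07 (SE 0.65, edgeR adjusted p = 0.147). Gm11687, which was not tested, had 48 and 57 counts in SO+ and 1, 0 and 1 in SO−. These 2 rows were singled out after their values were seen.

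Among the Rps2 members, the copy closest in sequence to Rps2-ps13 was not called. Rps2-ps10 differs from Rps2-ps13 at 2 of 882 aligned bases and had 13.4 and 8.84 CPM in SO+ and 9.43, 13.4 and 8.59 CPM in SO−. In CPM the genotypes overlapped, with a log2 fold change of −0.14 (SE 0.35, edgeR adjusted p = 0.930). Per 1000 counts of Rps2 it had 11.03 and 8.36 in SO+ and 4.74, 7.55 and 3.97 in SO−. This ratio was lower in every SO− embryo, with a difference of −0.85 on the log2 scale (exact permutation test, two-sided, p = 0.2). The remaining copies, Rps2-ps5, Rps2-ps9 and Rps2-ps11, had at most 79 counts in any library.

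**Figure D3:**
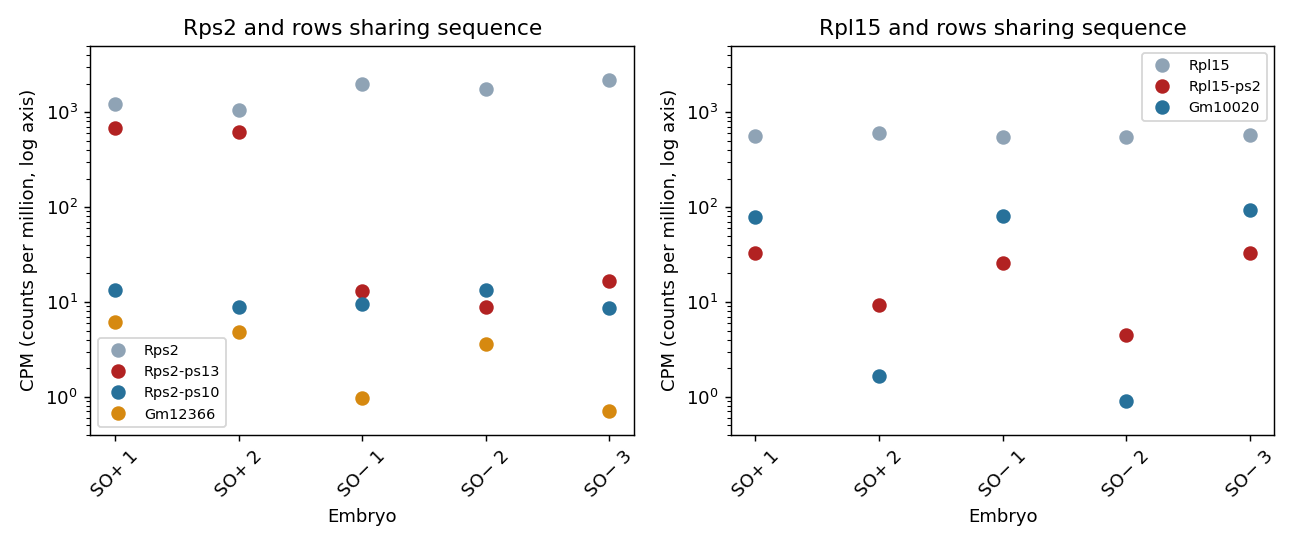
Points give CPM on a log axis in each embryo for Rps2, Rps2-ps13 and 2 rows that share a stretch with Rps2-ps13 (left), and for Rpl15, Rpl15-ps2 and Gm10020 (right). Rps2-ps13 and Gm12366 are lower in all 3 SO− embryos while Rps2-ps10 is not, and Rpl15-ps2 and Gm10020 are both low in SO+ 2 and SO− 2.

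Several abundant members differed severalfold between embryos of one genotype. The widest such difference was in Rpsa-ps10, which had 6482 and 562 counts in the SO+ embryos and 995, 17 and 80 in the SO− embryos. Per 1000 counts of Rpsa, this was 191 in SO+ embryo 1 and 186 in SO− embryo 1, but 11.9 in SO+ embryo 2 and 8.54 and 8.88 in SO− embryos 2 and 3. The embryos thus fell at a high and a low level, each with embryos of both genotypes. The ratio was 16.0 times higher in SO+ embryo 1 than in SO+ embryo 2 (95% interval 14.7 to 17.5, which covers counting error only). The log2 fold change with genotype was −0.35 (SE 0.91, edgeR adjusted p = 0.934).

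Rpsa was lowest in the embryos where Rpsa-ps10 was high. It had 1234 CPM in SO+ embryo 1 and 1291 CPM in SO− embryo 1, against 1747, 1782 and 2148 CPM in SO+ embryo 2 and SO− embryos 2 and 3. With its 7 pseudogenes added, Rpsa had 1479, 1780, 1543, 1810 and 2185 CPM, and its coefficient of variation went from 23.1% to 15.8%. Rpsa-ps10 held 92.0% of the counts of these 7 members.

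Rpl3-ps1, like Rps2-ps13 on the X chromosome, also had 2 levels. Per 1000 counts of Rpl3 it had 243 in SO+ embryo 1 and 225 and 229 in SO− embryos 1 and 2, against 103 in SO+ embryo 2 and 96.6 in SO− embryo 3. The grouping differed from that of Rpsa-ps10 only in SO− embryo 2, which was high for Rpl3-ps1 and low for Rpsa-ps10. Xist, the X-linked RNA of X inactivation, had 8.73 CPM in SO+ embryo 2 and 18.6 CPM in SO− embryo 3, the embryos with the low ratio. In SO+ embryo 1 and SO− embryos 1 and 2 it had 1.45, 1.21 and 4.47 CPM, from only 5 counts in each of the SO− embryos. Y-linked Ddx3y had 37.0 and 52.2 CPM in the embryos with the low ratio and 37.4, 45.5 and 39.4 CPM in those with the high ratio. The part of Xist in the result was not tested. Rpl3 had 692, 850, 600, 524 and 939 CPM in the order SO+ embryos 1 and 2 and SO− embryos 1, 2 and 3, and was thus highest in the embryos with the low ratio. Its coefficient of variation went from 23.8% to 18.3% when its 2 pseudogenes were added. Rps2, Rpsa and Rpl3 were the only parents of 51 in which it changed by more than 2 percentage points. The median over the parents was 7.91% before and 7.96% after.

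Rpl15-ps2 again was high in SO+ embryo 1 and SO− embryo 1 and low in SO+ embryo 2. It grouped SO− embryos 2 and 3 in yet another way. Per 1000 counts of Rpl15 it had 59.0 in SO+ embryo 1, 47.1 in SO− embryo 1 and 56.3 in SO− embryo 3, against 15.4 in SO+ embryo 2 and 8.17 in SO− embryo 2. Rpl15 itself was even, at 548 to 602 CPM in all embryos. Gm10020, listed as protein coding, shares a stretch of 150 bases with Rpl15-ps2 and was high and low in the same embryos. It had 2191 and 45 counts in SO+ and 337, 1 and 388 in SO−, which is 79.6, 1.66, 81.5, 0.895 and 92.6 CPM. Neither was called for genotype by edgeR (log2 fold change 0.16, SE 0.52, adjusted p = 0.948 for Rpl15-ps2 and 0.68, SE 0.99, adjusted p = 0.858 for Gm10020). Tcf12, whose intron holds Rpl15-ps2 on the opposite strand, had 51.8, 68.8, 84.7, 76.1 and 74.4 CPM. Its part in the result was not tested. Gm10020 was named after its values were seen.

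In the Rps15a family, 4 of 6 copies were low in the same embryo. Per 1000 counts of Rps15a, Rps15a-ps7 had 9.46 in SO+ embryo 2 and 52.0, 43.3, 59.9 and 66.2 in SO+ embryo 1 and SO− embryos 1, 2 and 3. Rps15a-ps6 had 5.01 in SO+ embryo 2 and 14.2 to 19.96 in the other 4. Rps15a-ps5 had 2.26 there and 5.75 to 14.0 in the other 4. Rps15a-ps8 had 0.137 there, from 2 counts, and 1.996 to 3.53 in the other 4. Rps15a-ps3 was lowest elsewhere, with 13.9 in SO+ embryo 2 and 5.99 in SO− embryo 2, and Rps15a-ps4 had at most 14 counts in any library. The 4 low copies lie on different chromosomes. Between the 2 SO+ embryos the ratio differed 5.50-fold for Rps15a-ps7 (95% interval 4.58 to 6.64), 3.95-fold for Rps15a-ps6 (3.05 to 5.18) and 4.09-fold for Rps15a-ps5 (2.78 to 6.17). Rps15a itself was at 534 and 539 CPM in SO+ and at 448 to 552 CPM in SO−. Rps15a-ps7 had the highest log2 fold change of a member, 0.84 (SE 0.51, edgeR adjusted p = 0.521), which did not pass the test. Without SO+ embryo 1 it was 2.52 with an adjusted p of 4.22e-05, so that its value turned on 1 library.

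Rps19-ps6, in an intron of Tecpr2 on the same strand, had 22.9 and 23.0 counts per 1000 of Rps19 in SO+ embryo 2 and SO− embryo 3, and 9.32, 11.7 and 5.30 in SO+ embryo 1 and SO− embryos 1 and 2. Tecpr2 had 3.58 to 6.39 CPM and was highest in SO+ embryo 1, and its part in the result was not tested. Rpl14-ps1 had 21.7 per 1000 of Rpl14 in SO+ embryo 1 and 9.97 in SO+ embryo 2, with 14.7, 5.88 and 9.22 in SO−. Its log2 fold change was −0.55 (SE 0.37, edgeR adjusted p = 0.588) and changed sign, to 0.0217, without SO+ embryo 1. Rps26-ps1 stood out in 1 embryo, with 59.0 per 1000 of Rps26 in SO− embryo 1 against 24.8 to 27.7 in the other 4.

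**Figure D4:**
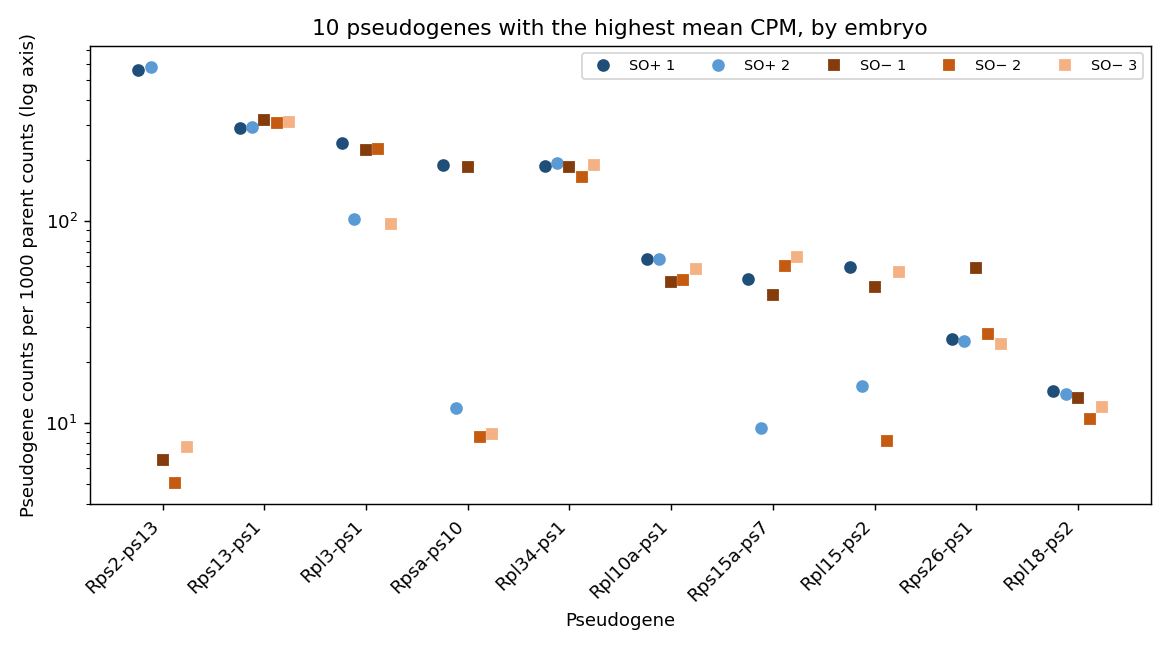
Points give pseudogene counts per 1000 parent counts on a log axis in each embryo for the 10 members with the highest mean CPM, circles for SO+ and squares for SO−. Rps2-ps13 splits by genotype, Rpsa-ps10, Rpl3-ps1, Rps15a-ps7 and Rpl15-ps2 split embryos within a genotype, and Rps13-ps1 and Rpl34-ps1 are nearly level.

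Other members kept a more even ratio. Rps13-ps1 had 290 and 291 counts per 1000 of Rps13 in SO+ and 317, 305 and 308 in SO−. The ranges did not overlap, by a difference of 0.10 on the log2 scale (exact permutation test, two-sided, p = 0.1). Its own CPM had a log2 fold change of 0.01 (SE 0.13, edgeR adjusted p = 0.993). Rpl34-ps1 had 188 and 194 per 1000 of Rpl34 in SO+ and 184, 166 and 190 in SO−, with overlap. Rpl18-ps2 had 14.5 and 14.0 in SO+ and 13.4, 10.4 and 12.0 in SO−, lower in each SO− embryo with a difference of −0.24 on the log2 scale (exact permutation test, two-sided, p = 0.2).

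Rpl10a-ps1 has no mismatch to Rpl10a over its 654 bases, so that no read inside it could tell the 2 apart. It still had 64.8 and 65.3 counts per 1000 of Rpl10a in SO+ and 50, 50.9 and 57.9 in SO−, lower in each SO− embryo (exact permutation test, two-sided, p = 0.2). In CPM its log2 fold change was −0.23 (SE 0.20, edgeR adjusted p = 0.713). Rps16-ps2, also without a mismatch, had 24.7 and 26.8 per 1000 of Rps16 in SO+ and 20.8, 16.4 and 20.3 in SO− (p = 0.1, same exact test). Rps6-ps4, another such copy, had 27.7 and 28.5 per 1000 of Rps6 in SO+ and 19.5, 28.5 and 14.3 in SO−.

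Over 67 members with at least 100 counts in the 2 SO+ libraries together, the ratio to the parent differed between those 2 embryos by a median factor of 1.117. It differed by less than 1.5-fold in 57 of them and by more than 2-fold in 8, in 7 of which the lower bound of the 95% interval was also above 2. The 8 were Rpsa-ps10, Rps15a-ps7, Rps15a-ps5, Rps15a-ps6, Rpl15-ps2, Rps19-ps6, Rpl3-ps1 and Rpl14-ps1. All of these but Rps19-ps6 had the higher ratio in SO+ embryo 1. Rps2-ps13 was not among the 8. It differed 1.03-fold between the SO+ embryos (95% interval 1.01 to 1.05). Only 17 members had 100 counts in the SO− libraries together.

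Ratios to the parent were then compared by genotype in all 133 pairs, as log2 of pseudogene over parent with 0.5 added to both counts. In 21 pairs (15.8%) the genotypes did not overlap, 12 higher and 9 lower in SO−. Over the 92 other named -ps pseudogenes with a parent row and at least 10 counts, 23.9% did not overlap, 12% in each direction. With 1 added in place of 0.5, 28 ribosomal pairs did not overlap, 22 higher and 6 lower, and the split by direction thus depended on the constant added to low counts. Of the 63 pairs with a tested member, 11 did not overlap and 61 had a difference within 1 of 0 on the log2 scale. The 23.9% over the other pseudogenes was for 0.5 added and all 92 pairs, so neither the 28 nor the 11 has a matching share. Apart from Rps2-ps13, the largest log2 fold changes of CPM did not pass the test. On the positive side they were 0.84 in Rps15a-ps7, 0.76 in Rpsa-ps1, 0.58 in Rps12-ps19, 0.52 in Rpl36a-ps1 and 0.45 in Rps26-ps1, with edgeR adjusted p from 0.521 to 0.814. On the negative side they were −0.77 in Rpl17-ps5, −0.58 in Rps6-ps4, −0.55 in Rpl14-ps1 and −0.49 in Rpl31-ps8, with edgeR adjusted p from 0.483 to 0.784. The count filter asked for a minimum level in any 2 embryos. Rpsa-ps1 had 1.16 and 1.85 CPM in SO+ and 1.21, 2.68 and 3.82 CPM in SO−. It and Rpl36a-ps1 passed the filter only through SO− embryos 2 and 3, so their rises cannot be read apart from the filter. With 1 embryo left out, 7 of these 9 log2 fold changes, all but those of Rps12-ps19 and Rps6-ps4, moved by more than 1.5 times, Rpl14-ps1 as given above. At their nearest to 0, Rpsa-ps1 was at 0.18 without SO− embryo 3, Rpl36a-ps1 at 0.22 without SO− embryo 2, Rps26-ps1 at 0.059 without SO− embryo 1 and Rps15a-ps7 at 0.087 without SO+ embryo 2. Rpl17-ps5 was at −0.47 without SO+ embryo 1 and Rpl31-ps8 at −0.29 without SO− embryo 3. The parents of these 9 members had log2 fold changes between −0.12 and 0.23, with Rpsa the highest.

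Families differed in how their counts were spread. Rpl31 had the most members, 9, with 57.5, 58.6, 55.9, 51.1 and 58.7 summed counts per 1000 of Rpl31 in SO+ embryos 1 and 2 and SO− embryos 1, 2 and 3. These sums were nearly level, and the largest member, Rpl31-ps8, held 22.0% of them. Rpl21 had 8 members with 14.6, 12.7, 13.2, 4.50 and 11.2 per 1000 of Rpl21, of which Rpl21-ps7 held 59.9% and Rpl21-ps11 and Rpl21-ps10 had no count in SO−. The 5 members of the Rps2 family had 577, 593, 13.1, 16.1 and 12.9 per 1000 of Rps2, with 97.5% of the counts in Rps2-ps13. In 20 families there was 1 member.

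Levels of different members were compared only per length, as the counts per 1000 parent counts times the parent's transcript length over the pseudogene's. The parent transcript was the best aligned for each member, so its length could differ within a family. For Rps15a it was 640 bases beside Rps15a-ps7 and 5179 beside Rps15a-ps4. The mean over the 5 embryos was at most 20 in 108 members, above 20 and at most 100 in 19, and above 100 in 6. The 6 were Rps13-ps1 at 331, Rps2-ps13 at 263, Rpl34-ps1 at 250, Rpl3-ps1 at 200, Rpl39-ps at 162 and Rpsa-ps10 at 147. These means average unequal embryos in 3 of the 6. Rps2-ps13 had 637 and 658 in SO+ and 7.42, 5.69 and 8.61 in SO−, and Rpsa-ps10 had 345, 21.5, 337, 15.4 and 16.1, so no embryo was near the mean of either. Rpl3-ps1 had 271, 115, 251, 255 and 108, while Rps13-ps1 stayed between 318 and 348. All 6 were at least 99% identical to their parents. The 47 aligned members of 99% identity or more had a median of 11.5 (0.198 to 331), the 54 of 97% to 99% had 5.21 (0.132 to 75.4), and the 31 under 97% had 1.90 (0.0983 to 25.9). Spearman's rho between identity and this value was 0.45 over the 132 aligned members, given as a description, since members of a family share a parent and all share the same libraries.

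Identity did not fix the level of a single member. The 10 copies without mismatch or gap ran from 0.198 to 73.3 per 1000 parent counts and per length, with a median of 9.64. At the other end, Rpl36a-ps3, with 40 mismatches to Rpl36a and no stretch of 150 bases in common with it, had 25.9. It does share 27.3% of its stretches with 2 other genes, among them Rpl36al, so that Rpl36a, taken from the name, is not its closest match by this measure. Rplp0-ps1, with 41 mismatches, had 1.62. Members with the whole reading frame open had a median of 7.14 (n = 75), and those without it 2.88 (n = 41). Identity to the parent was not held equal between these groups, so the frame cannot be read apart from it.

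**Figure D5:**
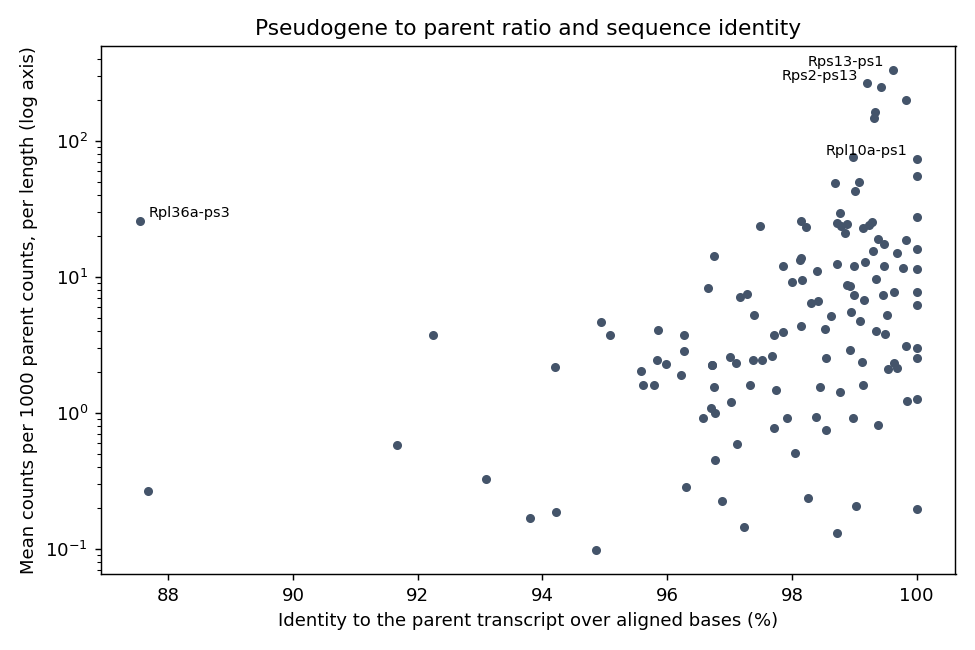
Each of 132 points is a member, with its identity to the parent transcript in percent (horizontal axis) and its mean counts per 1000 parent counts, per length, on a log axis (vertical axis). The highest means, 331 in Rps13-ps1 and 263 in Rps2-ps13, which was high only in the SO+ embryos, are at 99% identity or more, where values also go down to 0.198.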

How the data were processed

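RNA from the epiblast and VE of 2 SO+ and 3 SO− embryos was sequenced as SmartSeq2 libraries with paired reads of 150 bases. After adapter trimming with cutadapt, the authors mapped reads to GRCm38/mm10 with STAR and used HTSeq on the Ensembl 87 annotation, and they deposited raw counts with 1 column per embryo and no scaling. Strand use and the counting of reads with several matches are not given in the sources used here, so the division of reads among near-identical copies is uncertain. No molecular identifiers were used, so intervals cover counting error only.

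Counts were tested with edgeR 4.0.16 (quasi-likelihood F test with genotype alone in the model, all 5 embryos, TMM scaling and the filterByExpr filter) in R 4.3.3, with Benjamini-Hochberg adjustment over all genes tested. The test was first run on simulated counts. Standard errors are the log2 fold change over the square root of F. Single values were tested by exact permutation in scipy 1.17.1, and intervals of a ratio between embryos are exact binomial. Members were aligned to their parents' GENCODE M21 transcripts with biopython 1.88 (local, match 1, mismatch −2, gap −4 to open and −1 to extend), keeping the best and, among equals, the shortest transcript. Genes were named by a rule on calls, mean CPM, fold change, ratio to the parent, family size, mismatches and the count minimum. Members and lists were chosen with earlier results of these data known. Alternatives were DESeq2 1.42.0, other scalings and filters, other count minimums, the replicate number as a block, each embryo left out, and pseudogene counts added to the parent.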

Additional observations from a re-analysis of the deposited data

How the results depend on the processing

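Rps2-ps13 was called, and lower in SO−, under DESeq2, both other scalings, both other filters, the replicate block and with each embryo left out, with log2 fold changes from −5.80 to −5.45. The number of genes called went from 283 to 929 with the replicate block, and lay between 35 and 573 with 1 embryo left out. The number of parents called went from 2 to 4 with the replicate block and to 1 with pseudogene counts added, and lay between 0 and 2 with 1 embryo left out. The number of members called stayed at 1 with the block and lay between 1 and 2 with 1 embryo left out. The replicate numbers were not used as pairs, since same-numbered embryos are different animals. Their deviations correlated at 0.0077 and 0.115 over the 2 numbers. SO− embryo 3 is the only embryo of its number. The genotype difference in the block fit thus rested on SO− embryos 1 and 2 against the 2 SO+ embryos. Pairs without overlap went from 21 to between 44 and 49 with 1 embryo left out, where fewer embryos make overlap less likely. The share over the other named pseudogenes was not computed with an embryo left out. The log2 fold change of Rpl14-ps1 turned from −0.55 to 0.0217 without SO+ embryo 1 and lay between −0.96 and 0.0217 over the embryos left out, and the cause was not tested for this or the other changes. Depth limits the SO− libraries, where 44 members had no count in embryo 2 and a count of 0 allows up to 2.68 CPM.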
